A study of Mus musculus with 80 samples.

Results

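The collagen gene family was examined in male C57BL/6J mice, in brown fat (BAT), subcutaneous inguinal white fat (iWAT), liver and muscle. Members were all genes whose symbol in the count tables reads Col, a number, a and a number, which gave 44 of 32764 genes. The genotypes were wild type (WT), FGF21 KO, UCP1 KO and the double knockout (dKO). Breeding, birth and weaning took place at 30 °C. At 10 to 12 weeks of age the mice were moved to room temperature and chow was replaced by high-fat diet for 3 weeks, and food was withdrawn for 2 to 3 h before tissues were taken. FGF21 KO mice lack the hormone FGF21, UCP1 KO mice lack the heat-producing uncoupling protein of brown fat, and dKO mice lack both, all as homozygous carriers. The labels spell the latter "UCP1/FGF12 double KO", and Fgf21 had at most 3 counts in these libraries. Each genotype had 5 libraries per tissue, 80 in all, with 28691377 to 50380696 reads counted on genes. Per the study's methods, RNA came from 5 mice of each genotype, and the labels link no libraries of 1 mouse across tissues.

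Collagens are trimers of helical chains, and each gene encodes 1 chain. Fibrillar collagens form the tensile fibres of connective tissue, type IV collagen forms the sheet of basement membranes around adipocytes and vessels, and type VI collagen forms beaded filaments around cells. FACIT collagens decorate fibres, multiplexins (types XV and XVIII) sit at basement membranes, and further chains form short-chain networks, anchoring fibrils or membrane-spanning proteins. Of the 44 members, 11 are fibrillar, 6 type IV, 6 type VI, 3 short-chain, 1 an anchoring fibril chain, 9 FACIT, 4 transmembrane, 2 multiplexins and 2 others.

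Genes that passed a low-count filter were tested in each tissue with edgeR's quasi-likelihood test, and a gene was called at a Benjamini-Hochberg adjusted p under 0.01 over all genes tested. The filter kept 37 members in BAT, 40 in iWAT, 30 in liver and 43 in muscle. Every member passed somewhere, 29 in 4 tissues, 7 in 3, 5 in 2 and 3 in 1. Levels are CPM, counts scaled to each library's total with TMM factors, and levels of different genes are compared as CPM per kb of transcript. TMM factors were set within a tissue for genotypes, over both fat depots for depots and over all 80 libraries for CPM per kb, so levels are comparable only within 1 of these scalings. WT Col27a1, for example, was 93.98 ± 13.2 CPM in BAT and 16.95 ± 5.01 in iWAT by tissue, 113 ± 15.8 and 14.001 ± 4.36 over both depots, and 91.1 and 10.7 over all libraries.

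The labels were checked against targeted genes and markers. Fgf21 had 353 to 1728 counts in UCP1 KO BAT, 7 to 10 in WT BAT and at most 3 in every FGF21 KO and dKO library. Ucp1 had 24291 to 60779 counts in UCP1 KO BAT and 98548 to 216085 in WT, and 40641 to 90118 in dKO BAT and 168336 to 258096 in FGF21 KO, so reads on the gene remained. In iWAT it had 3942 to 20264 counts in libraries labelled UCP1 KO and 109 to 776 in WT, so counts were higher and not lower under that label. Whether these reads lie outside the part of the gene that was disrupted was not tested. The ranges of iWAT dKO (196 to 1189 counts) and FGF21 KO (6 to 733) overlapped, so Ucp1 counts do not check the loss of UCP1 in iWAT. Fgf21 had 23 to 385 counts in UCP1 KO iWAT and 2 to 11 in WT. A marker score averages log2(CPM + 0.1) over the genes of a list. Scores were 12.5 to 13.1 for hepatocyte genes in liver, 13.4 to 13.7 for skeletal muscle genes in muscle, 8.99 to 10.1 for brown adipocyte genes in BAT and 9.28 to 11.8 for adipocyte genes in iWAT. Markers of other tissues varied between libraries. The skeletal muscle score was 2.53 to 9.71 in UCP1 KO BAT, 2.98 to 8.79 in dKO BAT, 1.54 to 5.28 in FGF21 KO BAT and 1.46 to 3.56 in WT BAT. A score of 8 lymph node genes was 6.397 to 7.33 in 9 iWAT libraries (2 WT, 4 FGF21 KO, 1 UCP1 KO and 2 dKO) and at most 1.68 in the other 11. The skeletal muscle score of iWAT was highest in UCP1 KO replicate 1 (10.7), WT replicates 5 (9.93) and 4 (6.53) and FGF21 KO replicate 5 (8.34), with a median of 2.24 over 20 libraries. In bulk tissue, fewer cells of a type and less RNA per cell cannot be told apart.

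Promoters are printed for Col27a1, Col6a6 and Col4a4. Col27a1 was the only collagen gene that edgeR called in iWAT without adjusting for a marker score, and Col6a6 had the largest called change in UCP1 KO BAT. The Col4a4 window reaches across the space to its neighbour Col4a3, which was called in BAT while Col4a4 was not. The sequences are those of RefSeq. The windows run from 250 bases before to 50 bases after the RefSeq start site on GRCm38.p6 and are read 5′ to 3′ on the strand of the gene. Capitals mark matches to motifs that were searched on both strands. The GC box was searched as GGGCGG and the CCAAT box by the letters of its name. The TATA box was searched as TATAAA. The nuclear receptor hexamer was searched as AGGTCA.
Col27a1, chr4:63215162-63215461, plus strand: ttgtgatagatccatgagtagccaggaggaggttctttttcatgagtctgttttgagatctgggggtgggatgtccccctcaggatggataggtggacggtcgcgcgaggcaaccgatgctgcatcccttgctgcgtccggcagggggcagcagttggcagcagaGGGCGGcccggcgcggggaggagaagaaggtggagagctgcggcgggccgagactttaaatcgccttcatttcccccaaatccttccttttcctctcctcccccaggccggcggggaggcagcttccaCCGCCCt
Col6a6, chr9:105828036-105828335, minus strand: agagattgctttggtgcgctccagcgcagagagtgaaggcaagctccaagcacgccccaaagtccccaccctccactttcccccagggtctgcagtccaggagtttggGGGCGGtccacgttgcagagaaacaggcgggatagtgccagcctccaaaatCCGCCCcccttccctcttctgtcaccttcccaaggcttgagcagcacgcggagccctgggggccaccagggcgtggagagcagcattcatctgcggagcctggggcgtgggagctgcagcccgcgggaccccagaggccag
Col4a4, chr1:82586800-82587099, minus strand: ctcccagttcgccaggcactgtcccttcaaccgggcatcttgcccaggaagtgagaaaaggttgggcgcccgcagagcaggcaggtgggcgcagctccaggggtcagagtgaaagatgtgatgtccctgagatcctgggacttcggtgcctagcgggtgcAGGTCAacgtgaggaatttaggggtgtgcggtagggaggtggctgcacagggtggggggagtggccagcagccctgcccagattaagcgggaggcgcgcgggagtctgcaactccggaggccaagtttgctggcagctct
The Col27a1 and Col6a6 windows each held 2 GC boxes and none of the other motifs, and the Col4a4 window held 1 nuclear receptor hexamer and none of the others. Among 32851 mouse promoter windows of this length, 35.7% held a GC box, 37.4% a CCAAT box, 13.6% a TATA box and 16.3% a hexamer. In the 38 windows found for 35 collagen genes, these shares were 60.5%, 34.2%, 13.2% and 21.1%. A match describes letters only.

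The type IV genes lie in 3 head-to-head pairs. In the GENCODE annotation of GRCm38, the starts of Col4a3 and Col4a4 on chromosome 1 lie 72 bases apart, those of Col4a5 and Col4a6 on chromosome X lie 1309 bases apart, and Col4a1 and Col4a2 overlap at their starts. Col27a1 spans 63214004 to 63334991 on the plus strand of chromosome 4, and Mir455 lies within it. Col10a1 on chromosome 10 shares 18 exon bases with Nt5dc1 on the other strand. Whether counting used strand is not given in the sources used here, so reads of such overlaps may be divided between the genes.

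WT mice had a different collagen profile in each tissue. In iWAT, Col3a1, the chain of type III collagen, was highest at 485 ± 125 CPM per kb (SD, n = 5). The type I chain Col1a2 at 216 ± 57.6, the common type IV chain Col4a1 at 178 ± 64.5, the type I chain Col1a1 at 113 ± 25.7 and the type IV chain Col4a2 at 99.6 ± 38.3 CPM per kb came next. In BAT the type IV chains led, with 99.6 ± 9.4997 CPM per kb of Col4a1 and 64.2 ± 5.74 of Col4a2, followed by Col3a1 at 60.4 ± 15.2, Col1a2 at 24.5 ± 7.32 and the type VI chain Col6a1 at 21.1 ± 2.57. Neighbours in this order can overlap, as Col4a2 ranged from 57.6 to 72.1 and Col3a1 from 46.6 to 86.3 CPM per kb in BAT.

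Liver was dominated by Col18a1, whose C-terminal fragment is endostatin, at 202 ± 18.6 CPM per kb, 75.3% of the summed collagen level. The type V chain Col5a3 at 12.8 ± 2.404, the FACIT chain Col14a1 at 11.4 ± 4.45, Col27a1 at 7.97 ± 1.37 and Col3a1 at 7.23 ± 1.79 CPM per kb followed. Muscle had Col3a1 at 97.9 ± 8.67, Col1a2 at 56.8 ± 0.582, Col4a1 at 47.8 ± 5.32, Col6a1 at 33.03 ± 2.98 and Col4a2 at 29.1 ± 3.25 CPM per kb. The 5 leading members made up 72.6% of the summed level in BAT, 70.9% in iWAT, 90.1% in liver and 64.5% in muscle.

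**Figure D1:**
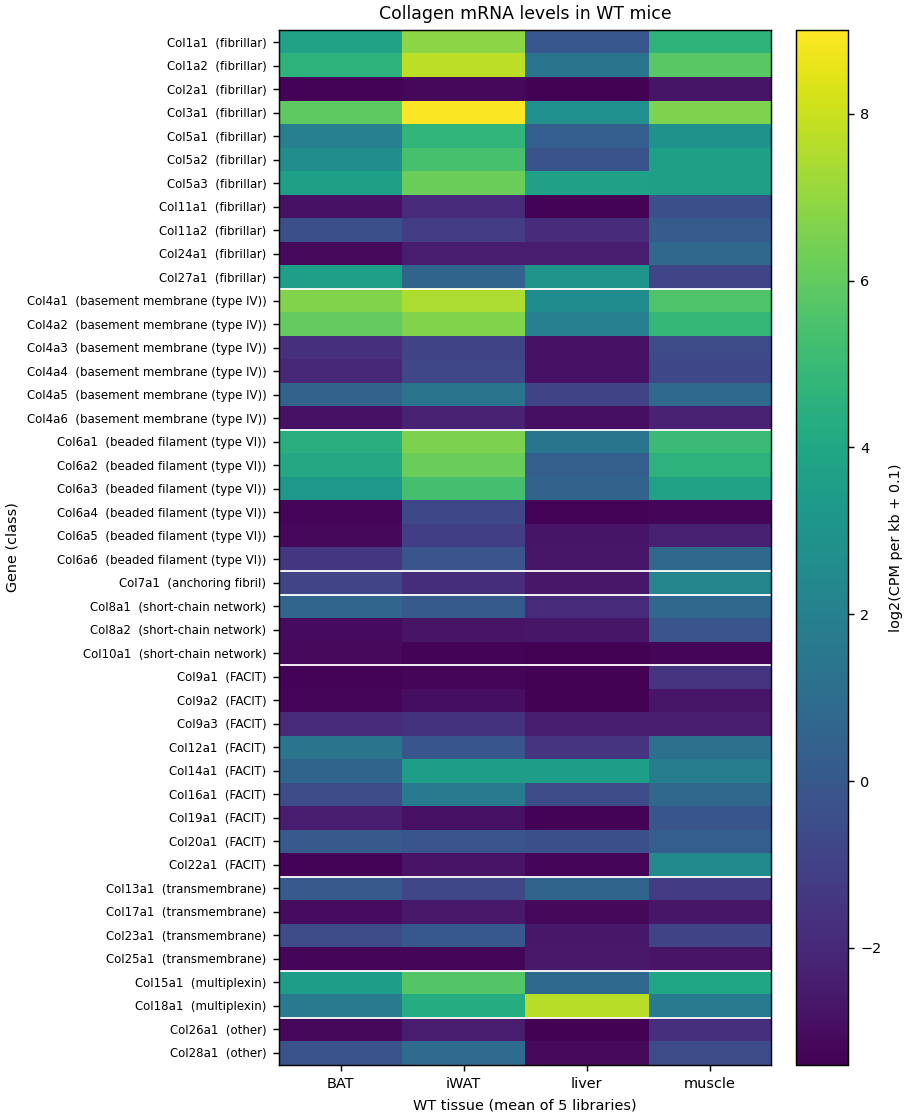
Mean level of the 44 collagen genes in WT BAT, iWAT, liver and muscle (5 libraries each), with colour showing log2 of CPM per kb plus 0.1. Col1a1, Col1a2, Col3a1 and Col6a1 to Col6a3 are brightest in iWAT, Col18a1 in liver and Col22a1 in muscle.

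Per member, iWAT had the highest WT mean for 20 genes, muscle for 17, liver for 4 and BAT for 3. Libraries of the highest and the next tissue did not overlap for 13, 8, 1 and 1 of these, and for 51.3% of all genes above 3 counts in their highest tissue. The gene without overlap in BAT was Col27a1, a fibrillar collagen known from cartilage, at 11.96 ± 1.69 CPM per kb and 1.5004-fold its level in liver. In iWAT it was at 1.402 ± 0.406 and in muscle at 0.472 ± 0.09001 CPM per kb. Among the muscle genes, Col22a1, a FACIT collagen of the muscle-tendon junction, was at 5.48 CPM per kb, 110.3-fold its level in iWAT, and the fibrillar chain Col24a1 was at 1.56, 17.1-fold that in iWAT. The WT iWAT libraries include replicate 5, which had a skeletal muscle score of 9.93 and the highest Col22a1 level of its group.

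BAT and iWAT of WT mice were compared in a fit of the 40 libraries of both depots, with CPM on the scaling of that fit. Most collagen genes were lower in BAT. Of 36 members tested, 26 (72.2%) were called, 23 lower and 3 higher in BAT, while 54% of all genes were called, 29.5% lower and 24.5% higher. The median log2 fold change was -1.67 over the members and -0.12 over all genes. Col1a2 was 163 ± 48.8 CPM in BAT and 1506 ± 369 in iWAT (log2 fold change -3.20, SE 0.34, edgeR adjusted p = 4.55e-10). Of the other interstitial chains, the log2 fold change was -3.13 for Col1a1, -3.07 for Col3a1, -2.86 for Col5a1 and -2.72 for Col5a2. The type VI chains Col6a1 (-2.23), Col6a3 (-2.21) and Col6a2 (-2.13) and the minor chain Col6a5 (-4.64, at 0.176 ± 0.144 against 4.51 ± 3.71 CPM) were lower too. Other called members were the multiplexins Col18a1 (-2.64) and Col15a1 (-2.21), the FACIT chain Col16a1 (-2.46), Col4a4 (-1.68) and Col28a1 (-1.31). Col22a1 was at 3 counts or fewer in the WT BAT libraries and 0.577 ± 0.492 CPM in iWAT, and no fold is given. Scaled within iWAT, its WT libraries had 0.471, 0.462, 0.431, 0.388 and 1.72 CPM, the highest in replicate 5 with the skeletal muscle score of 9.93, whose part in that level was not tested. Col4a1, the leading chain of BAT, was 821 ± 77.6 CPM in BAT and 1529 ± 529.5 in iWAT, with overlapping libraries (log2 fold change -0.90, SE 0.24, edgeR adjusted p = 0.00158). In the classes with no edgeR call, the largest changes were those of Col7a1 (log2 fold change 1.20, edgeR adjusted p = 0.0113) and Col8a2 (log2 fold change -1.34, edgeR adjusted p = 0.0527). DESeq2 called Col7a1 (log2 fold change 1.27, DESeq2 adjusted p = 0.00298). EdgeR called Col7a1 with RLE factors (log2 fold change 1.26, edgeR adjusted p = 0.00699). Among fits with 1 library left out, edgeR called it without iWAT WT replicate 5 (log2 fold change 1.70, edgeR adjusted p = 5.76e-04) and in some others.

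The members higher in BAT were Col27a1, the FACIT chain Col12a1 and the transmembrane chain Col13a1. Col27a1 had the smallest adjusted p of all members, at 113 ± 15.8 CPM in BAT and 14.001 ± 4.36 in iWAT, an 8.097-fold difference (log2 fold change 3.02, SE 0.25, edgeR adjusted p = 1.85e-12). Col12a1 was 36.1 ± 10.1 and 12.6 ± 3.204 CPM (log2 fold change 1.52, SE 0.32, edgeR adjusted p = 8.61e-05). The libraries of Col13a1 overlapped, at 3.76 ± 0.999 and 1.99 ± 0.389 CPM (log2 fold change 0.92, SE 0.23, edgeR adjusted p = 9.36e-04). On library totals without scaling factors, an alternative added after seeing the data, the median of all genes was -0.78 and that of the members -2.30. The log2 fold change there was 2.34 for Col27a1 (edgeR adjusted p = 3.61e-09), and the calls of Col12a1 (0.87, edgeR adjusted p = 0.0141) and Col13a1 (0.27, edgeR adjusted p = 0.303) were lost. Among the WT iWAT libraries, 2 had a high lymph node score, which were also those with the highest skeletal muscle scores, and their part in the depot difference was not tested. Without replicate 4 or 5 the log2 fold change of Col27a1 was 3.14 and 3.16.

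**Figure D2:**
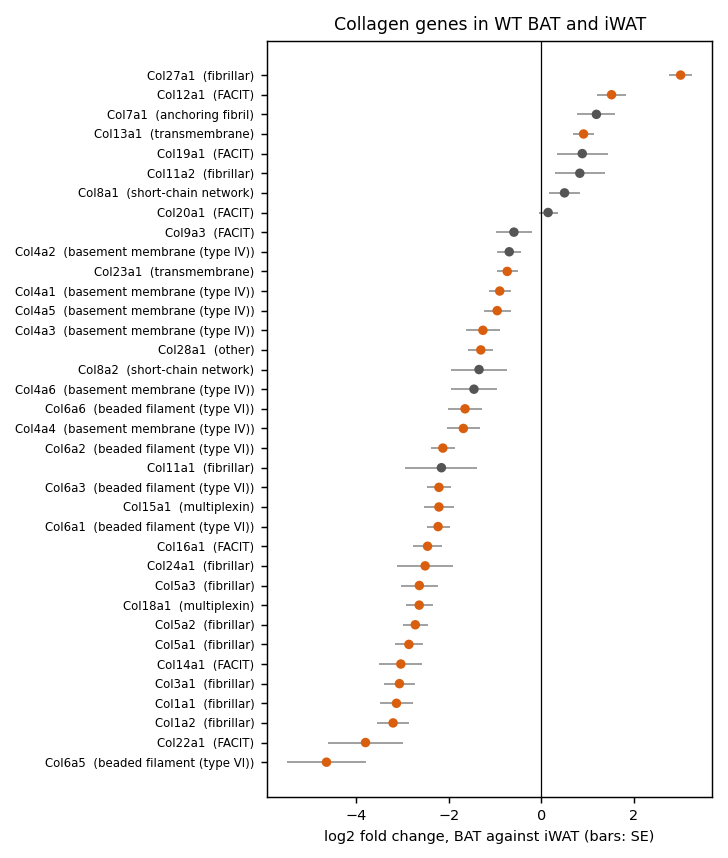
Log2 fold change of 36 collagen genes between WT BAT and WT iWAT (5 libraries each, bars show the SE, orange points were called at an adjusted p under 0.01). Most points lie below 0, and Col27a1 stands at the upper end at 3.02.

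The effect of UCP1 loss on BAT was read from UCP1 KO against WT and, in mice without FGF21, from dKO against FGF21 KO, which share no libraries. In both, the minor type VI chain Col6a6 and the type IV chain Col4a3 were lower and Col28a1 was higher. For UCP1 KO against WT these were the 3 called of 37 members (8.11%), against 25.2% of all genes, 13.8% higher and 11.4% lower. At an adjusted p under 0.05, 8 members passed, against 40.7% of all genes. For dKO against FGF21 KO, 6 members were called, 4 higher and 2 lower, against 13.5% of all genes, 6.74% higher and 6.8% lower. Libraries did not overlap for 3 members in the former, against 23.5% of all genes, and for 4 in the latter, against 18.6%. The median log2 fold change of the members was 0.10 and 0.29, and that of all genes 0.01 and 0.00. After adjusting for the skeletal muscle score, the members' medians were 0.03 and 0.10. Over all 4 genotypes, edgeR called 7 members, against 29.7% of all genes, namely Col28a1, Col6a6, Col4a3, Col10a1, Col11a2, Col4a5 and Col7a1. DESeq2 called 13 there, against 37.9% of all genes, and those it added were Col1a1 (adjusted p = 0.00441), Col3a1 (0.00661), Col5a3 (0.00276), Col4a1 (0.00106), Col4a2 (0.00892) and Col18a1 (0.001602).

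WT BAT libraries had 2.95, 1.72, 3.64, 2.18 and 1.59 CPM of Col6a6 and UCP1 KO libraries 0.376, 0.775, 0.346, 0.545 and 0.654 CPM. FGF21 KO libraries had 1.67, 1.81, 1.81, 1.56 and 1.44 CPM and dKO libraries 0.692, 0.209, 0.566, 1.39 and 0.418 CPM. In each comparison, every library without UCP1 lay below every library with it. UCP1 KO differed from WT with a log2 fold change of -2.16, SE 0.36, edgeR adjusted p = 1.71e-04, and dKO from FGF21 KO with a log2 fold change of -1.34, SE 0.36, edgeR adjusted p = 0.00999. The latter lies just under the threshold, with 8 to 54 counts in dKO, and of 20 fits with 1 library left out it passed only without WT replicate 3, UCP1 KO replicates 1 and 2 or dKO replicate 4 (otherwise adjusted p = 0.0101 to 0.0278). The adjusted p of Col6a6 was 0.01002 with RLE factors, 0.0123 with no low-count filter and 0.0209 with only the genotypes compared. Over these and the other settings, its log2 fold change in dKO against FGF21 KO was -2.36 to -1.33.

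Col4a3 encodes a chain of the type IV network known from the kidney glomerulus. WT libraries had 2.49, 1.405, 1.92, 1.82 and 1.13 CPM and UCP1 KO libraries 0.724, 0.8999, 0.733, 0.915 and 0.676 CPM, without overlap (log2 fold change -1.15, SE 0.22, edgeR adjusted p = 5.08e-04). FGF21 KO libraries had 1.802, 1.27, 1.904, 2.35 and 1.66 CPM and dKO libraries 1.22, 0.811, 1.06, 0.695 and 1.15 CPM, also without overlap (log2 fold change -0.86, SE 0.22, edgeR adjusted p = 0.00705). Of 20 fits with 1 library left out, the call in dKO was kept without WT replicates 1, 2 and 5, FGF21 KO replicate 2, UCP1 KO replicates 1, 2, 3, 4 and 5 or dKO replicate 1 and lost otherwise (adjusted p = 0.010004 to 0.0261). The adjusted p of Col4a3 was 0.01196 with no low-count filter, 0.01403 with only the genotypes compared, 0.0279 after adjusting for the skeletal muscle score and 0.0482 with only libraries of a low skeletal muscle score. Over these and the other settings, its log2 fold change in dKO against FGF21 KO was -0.91 to -0.84. Col4a4, which starts 72 bases away on the other strand, was 1.65 ± 0.281 CPM in WT and 1.11 ± 0.159 in UCP1 KO, with overlapping libraries (log2 fold change -0.57, SE 0.18, edgeR adjusted p = 0.0168), and had log2 fold change -0.32, edgeR adjusted p = 0.196 in dKO against FGF21 KO. Col4a5, a further chain of that network, was 9.06 ± 1.24 CPM in WT, 14.2 ± 4.196 in UCP1 KO, 6.95 ± 1.06 in FGF21 KO and 10.4 ± 3.23 in dKO. It was called over 4 genotypes (edgeR adjusted p = 0.00419) and not in UCP1 KO against WT (log2 fold change 0.65, edgeR adjusted p = 0.0202) or dKO against FGF21 KO (log2 fold change 0.58, edgeR adjusted p = 0.0473). In UCP1 KO against WT, DESeq2 called Col4a5 (log2 fold change 0.66, DESeq2 adjusted p = 0.00667), and edgeR called it without UCP1 KO replicate 2 (log2 fold change 0.80, edgeR adjusted p = 0.00213). Col4a1, the abundant chain, was 678 ± 47.4 CPM in UCP1 KO and 680.4 ± 65.7 in WT (log2 fold change -0.01, SE 0.08, edgeR adjusted p = 0.962).

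**Figure D3:**
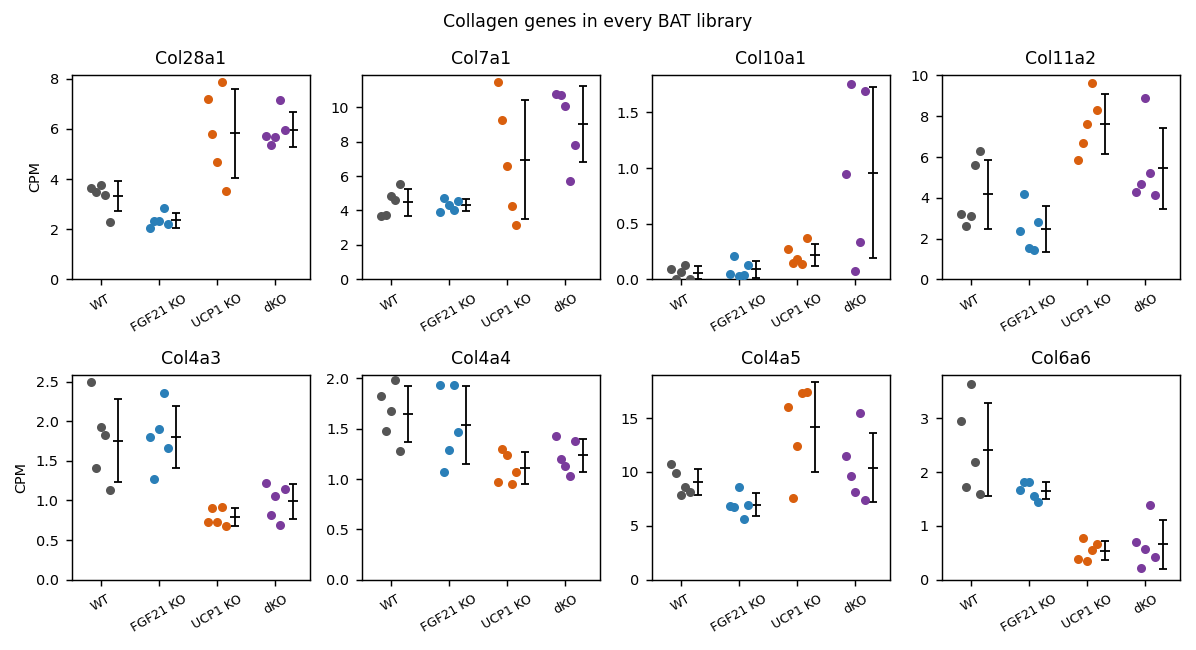
CPM of collagen genes in every BAT library (points) by genotype, with the mean and SD beside each group (n = 5, linear axes from 0). Col6a6 and Col4a3 points of UCP1 KO lie below all WT points, Col28a1 and Col7a1 points of dKO lie above all FGF21 KO points, and Col10a1 spreads widely in dKO.

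Col28a1 encodes a collagen related to type VI and known from Schwann cells. WT BAT libraries had 3.65, 3.48, 3.78, 3.38 and 2.29 CPM and UCP1 KO libraries 7.21, 5.799, 4.69, 7.88 and 3.53 CPM. A single UCP1 KO library lay within the WT range (log2 fold change 0.81, SE 0.18, edgeR adjusted p = 0.00199). The adjusted p of Col28a1 was 0.0183 with only the genotypes compared. FGF21 KO libraries had 2.04, 2.34, 2.32, 2.84 and 2.22 CPM and dKO libraries 5.72, 5.36, 5.68, 7.15 and 5.96 CPM, without overlap (log2 fold change 1.35, SE 0.19, edgeR adjusted p = 6.18e-05). Of 4 Schwann cell markers, 0 were called by edgeR in either comparison (0 and 1 at an unadjusted p under 0.05, DESeq2 was not run on marker lists). Their score was 2.42 to 3.63 in WT, 1.87 to 3.78 in UCP1 KO, 2.17 to 3.03 in FGF21 KO and 1.71 to 2.29 in dKO.

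A further 3 members rose in dKO against FGF21 KO. Col7a1, the chain of anchoring fibrils, had 3.91, 4.74, 4.32, 4.05 and 4.57 CPM in FGF21 KO and 10.8, 10.7, 10.04, 5.74 and 7.77 CPM in dKO, without overlap (log2 fold change 1.06, SE 0.27, edgeR adjusted p = 0.00692). In UCP1 KO it was at 3.16 to 11.5 CPM and in WT at 3.68 to 5.53 CPM (log2 fold change 0.63, SE 0.27, edgeR adjusted p = 0.0642). Of 20 fits with 1 library left out, the dKO call of Col7a1 was kept without WT replicates 1, 2, 3, 4 and 5, UCP1 KO replicates 1, 2, 3, 4 and 5 or dKO replicate 4 and lost otherwise (adjusted p = 0.01004 to 0.0194). The adjusted p of Col7a1 was 0.0332 after adjusting for the skeletal muscle score and 0.0263 with only libraries of a low skeletal muscle score. Over these and the other settings, its log2 fold change in dKO against FGF21 KO was 0.989 to 1.10. Col11a2, a cartilage fibril chain, had 2.37, 4.18, 1.52, 1.42 and 2.82 CPM in FGF21 KO and 4.29, 4.68, 8.91, 5.198 and 4.16 CPM in dKO, with a single pair of libraries overlapping (log2 fold change 1.14, SE 0.30, edgeR adjusted p = 0.00989). UCP1 KO was at 7.62 ± 1.46 and WT at 4.16 ± 1.67 CPM (log2 fold change 0.87, SE 0.30, edgeR adjusted p = 0.0259). The dKO call of Col11a2 was kept without WT replicates 2 and 5, FGF21 KO replicate 2 or UCP1 KO replicates 1 and 2 and lost in the other 15 fits (adjusted p = 0.0106 to 0.0329). The adjusted p of Col11a2 was 0.0114 with no low-count filter, 0.0201 with only the genotypes compared, 0.077995 after adjusting for the skeletal muscle score and 0.123 with only libraries of a low skeletal muscle score. Over these and the other settings, its log2 fold change in dKO against FGF21 KO was 0.84 to 1.15. Col10a1, the short-chain collagen of hypertrophic cartilage, was at 1 to 7 counts in FGF21 KO and 3 to 81 counts in dKO libraries, which overlapped. Its dKO levels were 0.946, 1.75, 0.0707, 0.335 and 1.69 CPM (log2 fold change 3.40, SE 0.74, edgeR adjusted p = 0.00264). The adjusted p of Col10a1 was 0.0118 with only the genotypes compared. Nt5dc1 on the other strand was not called there (log2 fold change -0.15, edgeR adjusted p = 0.276).

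With all libraries, edgeR did not call the fibrillar chains of types I, III and V in UCP1 KO against WT, in dKO against FGF21 KO or over 4 genotypes, where DESeq2 called Col1a1, Col3a1 and Col5a3. All 10 fibrillar members tested had a log2 fold change above 0 in UCP1 KO against WT (median 0.42), 0 were called by edgeR, 4 had an unadjusted p under 0.05 and DESeq2 called 1, Col11a2. Col3a1 was 525 ± 238 CPM in UCP1 KO and 347 ± 86.3 in WT (log2 fold change 0.60, SE 0.27, edgeR adjusted p = 0.08198), and Col1a1 118 ± 58.99 and 82.5 ± 29.1 (log2 fold change 0.51, SE 0.29, edgeR adjusted p = 0.1702). The type V chain Col5a3 had 48.6, 284, 228, 103 and 92.9 CPM in UCP1 KO and 84.6, 80.8, 68.2, 94.9 and 60.4 CPM in WT (log2 fold change 0.96, SE 0.35, edgeR adjusted p = 0.0343). Without UCP1 KO replicate 1, its lowest library, edgeR called Col5a3 higher in UCP1 KO (log2 fold change 1.19, edgeR adjusted p = 0.00394) and over 4 genotypes (edgeR adjusted p = 0.00203). The highest UCP1 KO value of Col3a1 and Col1a1, 919 and 219 CPM, came from replicate 2, which had the skeletal muscle score of 9.71. Its scores of macrophage genes (5.29) and of fibroblast and progenitor genes (4.97) were also the highest in BAT. In dKO replicates 1, 3 and 4, with skeletal muscle scores of 8.51, 8.79 and 8.66, Col1a1 was 65.8, 63.2 and 139 CPM. Slc19a1, which overlaps Col18a1, was lower there (log2 fold change -0.82, edgeR adjusted p = 0.00363). By class, the largest changes without an edgeR call were those of Col24a1 (fibrillar, log2 fold change 1.56, edgeR adjusted p = 0.0918), Col10a1 (short-chain, log2 fold change 1.87, edgeR adjusted p = 0.0914), Col18a1 (multiplexin, log2 fold change 0.71, edgeR adjusted p = 0.0115) and Col23a1 (transmembrane, log2 fold change -0.21, edgeR adjusted p = 0.399). In the FACIT class it was Col22a1, at 0 to 3 counts in WT and 1 to 22 in UCP1 KO, for which no fold is given. DESeq2 called Col18a1 in UCP1 KO against WT (log2 fold change 0.72, adjusted p = 0.00299), and edgeR called it without UCP1 KO replicate 1 (adjusted p = 0.00405) or 4 (0.00823) or FGF21 KO replicate 5 (0.00937).

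Col22a1 and Col24a1, both highest in muscle, were set beside the skeletal muscle score of BAT. In the 4 libraries with a score of 8.51 to 9.71 (1 UCP1 KO and 3 dKO), Col24a1 was at 0.669 to 1.25 CPM, against 0.0592 to 0.242 in the other 16. Col22a1 was at 0.115 to 0.589 and 0 to 0.196 CPM. Without the 5 libraries of a score above 6, which left 3 UCP1 KO and 2 dKO libraries, Col4a3, Col4a5, Col6a6 and Col28a1 were called for UCP1 KO against WT, beside 22.8% of all genes in that fit. For dKO against FGF21 KO, Col6a6, Col10a1, Col12a1 and Col28a1 were called there, beside 12.7% of all genes. The FACIT chain Col12a1 was lower in dKO in that fit (log2 fold change -1.10, edgeR adjusted p = 0.00296). Its dKO libraries had 19.8, 12.8, 12.3, 44.4 and 12.5 CPM and its FGF21 KO libraries 26.5, 22.002, 29.2, 26.2 and 31.5 CPM, and it was not called with all libraries (log2 fold change -0.41, SE 0.29, edgeR adjusted p = 0.297) or in UCP1 KO against WT (log2 fold change -0.73, SE 0.29, edgeR adjusted p = 0.0501). Without dKO replicate 4, the highest, Col12a1 was called lower in dKO (log2 fold change -0.92, edgeR adjusted p = 0.00172) and in UCP1 KO against WT (log2 fold change -0.73, edgeR adjusted p = 0.00289). With only libraries of a low skeletal muscle score, the median log2 fold change of members was 0.02 for UCP1 KO against WT and 0.20 for dKO against FGF21 KO. The cuts on this score and on the lymph node score were chosen after the scores were seen.

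**Figure D4:**
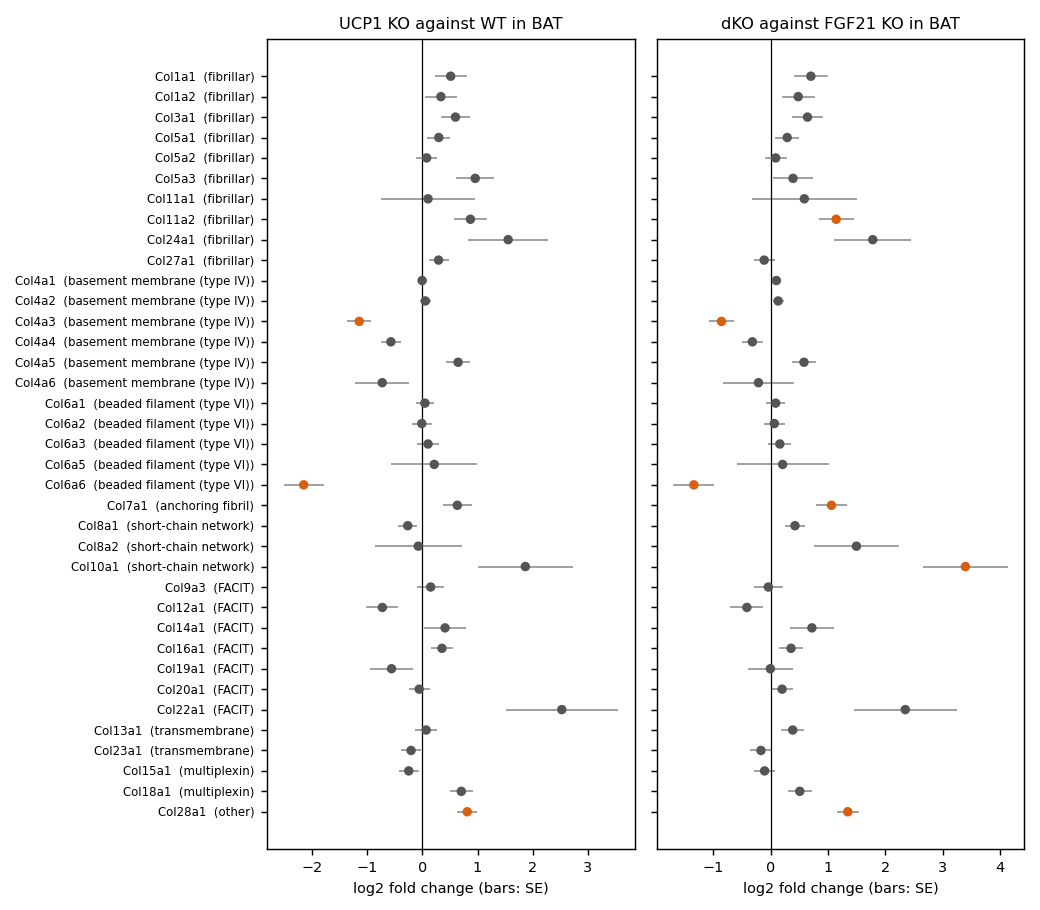
Log2 fold change of 37 collagen genes in BAT for UCP1 KO against WT and for dKO against FGF21 KO (5 libraries per genotype, bars show the SE, orange points were called at an adjusted p under 0.01). Col4a3 and Col6a6 lie below 0 and Col28a1 above 0 in both comparisons, and the 10 fibrillar points lie above 0 for UCP1 KO against WT.

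Markers of other cells moved with these comparisons. Of 4 macrophage genes, Cd68, Adgre1 and Mrc1 were higher in UCP1 KO than in WT BAT (log2 fold change 1.81, 1.37 and 0.98), and the score was 3.86 to 5.29 against 3.34 to 3.67. Of 5 mural cell genes, Rgs5 was lower (-0.54), and the score was 5.32 to 5.92 against 6.101 to 6.49. Of 6 endothelial genes, Tek and Egfl7 were lower (-0.48 and -0.39). The only mesothelial gene of 4 that passed the filter, Lrrn4, was lower in UCP1 KO (-1.45) and in dKO against FGF21 KO (-1.26). Of 8 fibroblast and progenitor genes, Thy1 was higher and Pdgfrb lower, and the score overlapped at 3.98 to 4.97 against 4.14 to 4.77. Of 10 skeletal muscle genes, 5 were higher, and the adipocyte gene Adipoq was lower (-1.15). Among brown adipocyte genes, Ucp1 was lower (-2.62) and Elovl3 higher (3.31). In dKO against FGF21 KO, the genes called higher were Cd68 (1.13), Thy1 (0.78), Elovl3 (3.01) and the lymph node gene Cd3e (1.61). Those called lower there, beside Lrrn4, were Tek (-0.39), Rgs5 (-0.37), Adipoq (-1.01) and Ucp1 (-2.14), and 0 of 10 skeletal muscle genes were called, all 10 with an unadjusted p under 0.05 and a log2 fold change above 0. Fits that adjust for the skeletal muscle score or leave out libraries where it is high are given above. The part of the other cells in the collagen values was not tested.

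Genes that make, cross-link, bind and remove collagen were counted from a list of 72. In BAT, 14 of 70 tested were called for UCP1 KO against WT, 10 higher and 4 lower, beside the 25.2% of all genes. Timp4, an inhibitor of matrix proteases, had the smallest adjusted p, at 29.3 ± 3.302 CPM in UCP1 KO and 57.3 ± 5.16 in WT (log2 fold change -0.97, SE 0.11, edgeR adjusted p = 3.27e-06). The inhibitor Timp3 was also lower (-0.58) and Timp1 higher (1.43). Tgfb1, a growth factor that activates fibroblasts, was 14.9 ± 2.27 against 8.03 ± 0.602 CPM (log2 fold change 0.89, SE 0.11, edgeR adjusted p = 1.27e-05), and its receptor Tgfbr2 was lower (-0.65). Of 5 cross-linking enzymes, Loxl1 was 26.2 ± 8.43 against 11.3 ± 2.19 CPM (log2 fold change 1.21, SE 0.22, edgeR adjusted p = 3.18e-04), and Loxl4 was higher. Among 16 matrix partners, the collagen-binding Sparc was higher (0.46) and the laminin chain Lamb1 lower (-0.78). The collagen receptors Ddr1 and Ddr2, the propeptide processing genes Pcolce and Adamts14 and the modifying enzyme Colgalt1 were higher. In dKO against FGF21 KO, 6 of 70 (8.57%) were called, beside the 13.5% of all genes, with Tgfb1, Loxl1, Sparc and Bgn higher and Timp4 and Lamb1 lower.

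Comparisons of FGF21 status gave no collagen call in BAT with all libraries. With only libraries of a low skeletal muscle score, edgeR called Col4a5 higher in UCP1 KO than in dKO (log2 fold change 1.00, edgeR adjusted p = 0.00688, beside 1.16% of all genes). For UCP1 KO against dKO, 0 of 37 members were called by edgeR and 0 by DESeq2, 8 had an unadjusted p under 0.05, and 0.0636% of all genes were called. The smallest p-values were those of Col10a1 (log2 fold change -2.11, edgeR adjusted p = 0.211), the FACIT chain Col9a3 (log2 fold change 0.72, edgeR adjusted p = 0.252) and Col27a1 (log2 fold change 0.47, edgeR adjusted p = 0.305). For FGF21 KO against WT, 0 members were called by edgeR and 0 by DESeq2, 6 had an unadjusted p under 0.05, and 0% of all genes were called. Col4a1 came first, at 552 ± 55.6 CPM in FGF21 KO and 680.4 ± 65.7 in WT (log2 fold change -0.30, SE 0.08, edgeR adjusted p = 0.267), then Col4a6 (log2 fold change -1.61, edgeR adjusted p = 0.391) and Col4a2 (log2 fold change -0.28, edgeR adjusted p = 0.396). The interaction of both losses gave 0 members by edgeR and 0 by DESeq2, 1 at an unadjusted p under 0.05, and 0% of all genes. Col8a1 (log2 fold change -0.69, edgeR adjusted p = 0.904), Col28a1 (log2 fold change -0.53, edgeR adjusted p = 0.904) and Col6a6 (log2 fold change -0.82, edgeR adjusted p = 0.927) had the smallest p-values.

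In iWAT, Col27a1 was the only member that edgeR called without adjusting for a marker score, and UCP1 KO exceeded both WT and dKO. WT libraries had 12.7, 14.1, 13.1, 22.3 and 22.5 CPM and UCP1 KO libraries 30.6, 37.1, 67.1, 60.6 and 83.7 CPM. FGF21 KO libraries had 22.9, 14.1, 25.3, 22.7 and 20.9 CPM and dKO libraries 24.8, 14.2, 22.1, 21.7 and 16.01 CPM. Every UCP1 KO library lay above the 15 others. Over 4 genotypes it was the 1 called of 40 members (edgeR adjusted p = 0.00106), with 1.74% of all genes called. UCP1 KO differed from WT with a log2 fold change of 1.72, SE 0.27, edgeR adjusted p = 0.00305, where 0.61% of all genes were called and 0.593% called higher. Against dKO the log2 fold change was 1.497, SE 0.27, edgeR adjusted p = 0.00777, where 0.466% of all genes were called and 0.437% called higher. Of all genes, 3.83% and 2.09% had libraries without overlap in these comparisons.

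In mice without FGF21, UCP1 loss gave a Col27a1 log2 fold change of -0.10, SE 0.26, edgeR adjusted p = 0.821. The interaction of both losses was 1.82 on the log2 scale (SE 0.37, edgeR adjusted p = 0.0911) and was called by DESeq2 (adjusted p = 0.00143), beside 0.357% of all genes. EdgeR called 0% of all genes and 0 of 40 members, 5 of them at an unadjusted p under 0.05. Col28a1 (log2 fold change -1.23, edgeR adjusted p = 0.398) and Col4a2 (log2 fold change -1.17, edgeR adjusted p = 0.464) followed. Without WT replicate 1, 2 or 3, the adjusted p for Col27a1 in UCP1 KO against WT was 0.0149 to 0.0166. It was 0.0421 in a fit of only these genotypes, which called 0.00575% of all genes. Against dKO the call was kept without WT replicate 5, FGF21 KO replicates 2 and 3 or UCP1 KO replicates 1 and 2. It was lost in the other 15 fits with 1 library left out (adjusted p = 0.0105 to 0.0307). A fit of only these genotypes lost it too (adjusted p = 0.105), and called 0% of all genes. Over the other settings, the log2 fold change of Col27a1 was 1.71 to 2.16 against WT and 1.45 to 1.77 against dKO.

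Brown adipocyte markers were higher in the same libraries. Of 4 genes, Elovl3, Cidea and Ppara were called for UCP1 KO against WT (log2 fold change 8.39, 4.90 and 3.38) and Elovl3 and Ppara against dKO (6.26 and 3.43). The score was 7.34, 6.54, 8.299, 8.23 and 9.26 in UCP1 KO replicates 1 to 5, 2.01 to 3.56 in WT, -0.0909 to 3.41 in FGF21 KO and 1.77 to 4.59 in dKO. The part of brown adipocyte-like cells in the Col27a1 level was not tested. Ucp1 itself had more counts in these libraries labelled UCP1 KO than in WT, as given above. The skeletal muscle score was 10.7 in UCP1 KO replicate 1, which had the lowest Col27a1 level of its group, and 6.53 and 9.93 in WT replicates 4 and 5, the highest of theirs. Without any 1 of these 3 libraries the call against WT was kept (log2 fold change 1.83 to 1.87). With only the 11 libraries of a low lymph node score, the Col27a1 log2 fold change of UCP1 KO against WT was 2.16 (edgeR adjusted p = 0.00285), with 1 FGF21 KO library left. Against dKO, the call of Col27a1 was lost in that fit (log2 fold change 1.77, edgeR adjusted p = 0.0109).

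**Figure D5:**
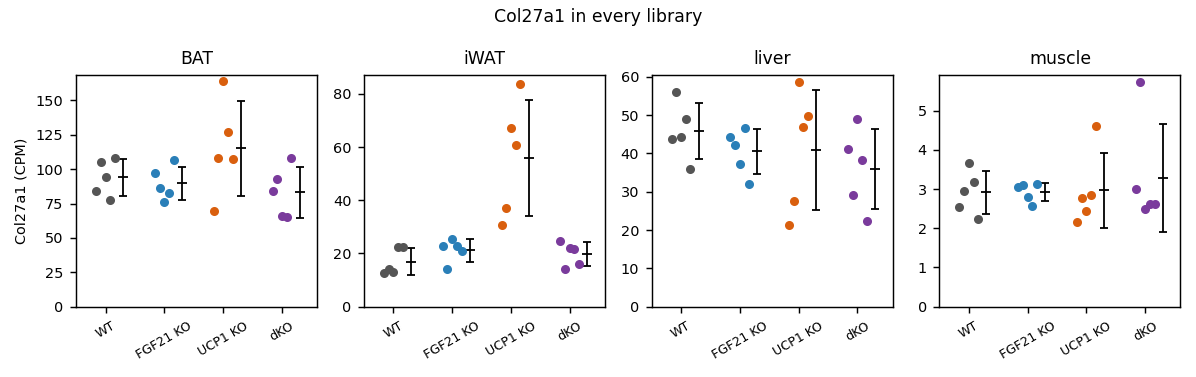
Col27a1 in every library (points) of 4 tissues by genotype in CPM, with the mean and SD beside each group (n = 5, linear axes from 0 that differ between panels). In iWAT the 5 UCP1 KO points, 30.6 to 83.7, lie above all others, and in BAT, liver and muscle UCP1 KO and WT overlap.

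In BAT, Col27a1 was 115 ± 34.4 CPM in UCP1 KO and 93.98 ± 13.2 in WT (log2 fold change 0.29, SE 0.18, edgeR adjusted p = 0.208). In liver it was 40.9 ± 15.7 and 45.9 ± 7.42 CPM (log2 fold change -0.17, SE 0.23, edgeR adjusted p = 0.851), and in muscle 2.97 ± 0.965 and 2.91 ± 0.558 CPM (log2 fold change 0.03, SE 0.22, edgeR adjusted p = 0.98002). The difference between the UCP1 KO responses of BAT and iWAT was tested in the fit of both depots. Col27a1 was the 1 member called of 36, with a response lower in BAT by a log2 difference of -1.39 (SE 0.33, edgeR adjusted p = 0.00335), and 7.48% of all genes were called. Without iWAT UCP1 KO replicate 5 the adjusted p was 0.0106. On library totals without scaling factors, where the median of all genes was 0.48, the difference of Col27a1 was -0.90 (edgeR adjusted p = 0.0587), and its call was lost. The members called there were Col4a5 (1.71), Col18a1 (1.25), Col28a1 (1.71) and Col22a1, whose counts in WT BAT are too low for a fold, each with a higher response in BAT, and DESeq2 called Col22a1 beside Col27a1 (DESeq2 adjusted p = 0.00992).

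No other member was called in iWAT by edgeR without adjusting for a marker score. After adjusting for the lymph node score, Col5a2 was called lower in UCP1 KO than in WT (log2 fold change -0.60, edgeR adjusted p = 0.00504) and the transmembrane chain Col17a1 lower than in dKO (log2 fold change -1.63, edgeR adjusted p = 0.00679), beside 4.72% and 4.3% of all genes. DESeq2 called Col17a1 against dKO too (log2 fold change -1.93, DESeq2 adjusted p = 0.00988). For UCP1 KO against WT, 35 of 40 members had a log2 fold change below 0, with a median of -0.22 beside -0.03 for all genes, and 2 had an unadjusted p under 0.05. Col1a1 was 1065 ± 441 CPM in UCP1 KO and 1064 ± 234 in WT (log2 fold change 0.00, SE 0.36, edgeR adjusted p = 0.999), and Col3a1 3857 ± 1313 and 4275 ± 1075 (log2 fold change -0.15, SE 0.35, edgeR adjusted p = 0.924). The largest log2 fold changes by class were -0.96 for Col22a1, -0.89 for Col4a3, -0.80 for Col6a4, 0.70 for Col7a1, -0.45 for Col28a1, -0.39 for Col23a1, -0.22 for Col15a1 and -0.01 for Col8a1, at edgeR adjusted p values of 0.268 to 0.996. Of 71 pathway genes tested, 0 were called by edgeR for UCP1 KO against WT (5 at an unadjusted p under 0.05) or against dKO (7), and DESeq2 was not run on this list.

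Summed collagen in iWAT was lower where the lymph node score was high. The 9 libraries with a high score had 5531 to 10704 CPM over all members (median 7840.1), and the 11 others 12974 to 19196 CPM (median 15727). Of the FGF21 KO libraries, 4 of 5 had a high score. For FGF21 KO against WT the median log2 fold change of members was -0.50, and -0.27 after adjusting for the score. These medians were -0.22 and -0.38 for UCP1 KO against WT, 0.35 and 0.07 for dKO against FGF21 KO and -0.26 and -0.27 for UCP1 KO against dKO. For FGF21 KO against WT, 0 members were called by edgeR and 0 by DESeq2, 3 had an unadjusted p under 0.05, and 0.00575% of all genes were called. Col4a5 (log2 fold change -1.02, edgeR adjusted p = 0.249), Col13a1 (log2 fold change -0.69, edgeR adjusted p = 0.253) and Col28a1 (log2 fold change -0.83, edgeR adjusted p = 0.2604) had the smallest p-values. For dKO against FGF21 KO, 0 members were called by edgeR and 0 by DESeq2, 5 had an unadjusted p under 0.05, and 0.0115% of all genes were called. Col18a1 (0.91), Col28a1 (0.78) and Col5a3 (0.94) came first there, each at an edgeR adjusted p = 0.542.

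In liver, the interstitial chains came closest to a call. Over 4 genotypes, edgeR called 0 of 30 members, beside 0.34% of all genes, and 11 had an unadjusted p under 0.05. DESeq2 called 3, beside 1.34% of all genes. These 3 were Col3a1, Col1a1 and Col1a2 (edgeR adjusted p = 0.0116, 0.0121 and 0.0149). Col1a1 was at 3.595, 3.34, 4.98, 3.54 and 4.24 CPM in WT and 5.05, 12.9, 12.1, 8.096 and 5.61 CPM in UCP1 KO, without overlap (log2 fold change 1.15, SE 0.24, edgeR adjusted p = 0.0282). For UCP1 KO against WT, 0 members were called by edgeR, 7 had an unadjusted p under 0.05 and DESeq2 called Col1a1 (adjusted p = 6.74e-04). Of all genes, edgeR called 0.0694% and DESeq2 0.777%, and 0.618% had an edgeR adjusted p under 0.05. Col3a1 was 51.4 ± 17.98 CPM in UCP1 KO and 30.4 ± 7.48 in WT (log2 fold change 0.75, SE 0.19, edgeR adjusted p = 0.0895), and Col1a2 15.6 ± 4.55 and 10.1 ± 2.098 (log2 fold change 0.62, SE 0.17, edgeR adjusted p = 0.1197). Col18a1, the leading liver collagen, was 875 ± 142 and 853 ± 69.6 CPM (log2 fold change 0.04, SE 0.11, edgeR adjusted p = 0.945).

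The score of 3 stellate cell genes, which mark the main collagen-making cell of liver, was 3.79 to 3.99 in UCP1 KO and 3.47 to 4.62 in WT liver, and the mural score was 1.88 to 2.73 and 1.58 to 1.90. The skeletal muscle score was 1.09 to 1.81 in UCP1 KO, 0.846 to 1.803 in FGF21 KO and 1.68 to 3.76 in WT liver. After adjusting for the skeletal muscle score, the median log2 fold change of members went from 0.27 to 0.25 for UCP1 KO against WT. It went from -0.18 to -0.09 for FGF21 KO against WT. These adjusted fits called 0 members, beside 0% and 0.00694% of all genes. The part of stellate and mural cells in the collagen values was not tested. FGF21 KO against WT gave 0 members by edgeR and 0 by DESeq2, with 4 at an unadjusted p under 0.05 and 0.229% of all genes called. Col1a2 (log2 fold change -0.42, edgeR adjusted p = 0.578), Col14a1 (log2 fold change -0.47, edgeR adjusted p = 0.589) and Col3a1 (log2 fold change -0.46, edgeR adjusted p = 0.596) had the smallest p-values.

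In muscle, 0 of 43 members were called over 4 genotypes by edgeR and 0 by DESeq2, 7 had an unadjusted p under 0.05, and 0.086% of all genes were called. The cartilage collagens Col10a1 (edgeR adjusted p = 0.0235) and Col2a1 (0.114) had the smallest p-values, followed by Col4a5 (0.145). Both were high in a single library, dKO replicate 2, with 484 counts of Col10a1 and 380 of Col2a1. The other 19 muscle libraries had at most 2 and 16 counts. The score of chondrocyte and tendon genes was 2.74 in that library and 0.541 to 1.18 in the others.

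For UCP1 KO against WT in muscle, 0 members were called by edgeR and 0 by DESeq2, 1 had an unadjusted p under 0.05, and 0.0265% of all genes were called. Col4a5 (log2 fold change -0.35, edgeR adjusted p = 0.478), Col4a4 (log2 fold change -0.34, edgeR adjusted p = 0.528) and the transmembrane chain Col25a1 (log2 fold change -0.89, edgeR adjusted p = 0.546) had the smallest p-values. Col3a1, the leading muscle collagen, was 433 ± 55.5 CPM in UCP1 KO and 442 ± 38.4 in WT (log2 fold change -0.03, SE 0.19, edgeR adjusted p = 0.976). For FGF21 KO against WT, 0 members were called by edgeR and 0 by DESeq2, 4 had an unadjusted p under 0.05, and 0.00662% of all genes were called. Col15a1 (log2 fold change -0.44, edgeR adjusted p = 0.209), Col4a5 (log2 fold change -0.37, edgeR adjusted p = 0.295) and Col28a1 (log2 fold change -0.51, edgeR adjusted p = 0.321) came first.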

How the data were processed

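RNA-seq counts of 80 libraries were used. Per the study's methods, the authors made TruSeq stranded poly(A) libraries, sequenced paired ends on a HiSeq4000, aligned reads with STAR to mm10 and deposited HTSeq counts per UCSC gene, not normalized. The strand option is not given in the sources used here. A row with no gene name, at most 3.42e-05% of counts, was left out. Genes with a maximum above 15, a sum above 75 and at most 10 libraries at 0 in a tissue were tested. Library sizes were scaled by TMM, and edgeR 4.0.16 (R 4.3.3, limma 3.58.1) was fitted per tissue over 4 genotypes, and over 40 libraries for both fat depots, with Benjamini-Hochberg adjustment over all genes tested. Alternatives were DESeq2 1.42.0, RLE factors, no filter, other thresholds, library totals without scaling factors, covariates, fits of only the genotypes compared and leaving out each library. Transcript length was that of the longest protein-coding GENCODE transcript. Of 760 library pairs within tissues, 0 held identical counts. The edgeR test was run on counts simulated for UCP1 KO against WT in BAT, with the same spread set for all genes. That simulation does not cover the other fits.

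The members and gene lists were chosen with earlier results of these data known. Named are the members called in a comparison (with over 25, the 12 of smallest adjusted p and the largest change per class), the 5 highest per tissue in WT, the largest change per class for UCP1 KO against WT in fat, and, with no call, the 3 of smallest p. Pathway genes called in BAT and other members that a result turns on are named too.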

Additional observations from a re-analysis of the deposited data

Results flagged for a closer look

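In groups of 5 libraries, single libraries stood apart from the other 4 by Dixon's criterion in 18 of 208 groups examined, 8.65%. For independent normal values, chance gives about 1 in 20. The CPM values need not be normal, the genes were chosen from these results and the same libraries recur, so the 2 shares are not a test. In BAT, UCP1 KO replicate 2 was high for Col1a1 (219 CPM), Col1a2 (307 CPM), Col24a1 (1.25 CPM) and Col9a3 (0.6999 CPM). It has the highest skeletal muscle, macrophage and fibroblast and progenitor scores of BAT. dKO replicate 4 was high for Col1a2 (242 CPM) and Col12a1 (44.4 CPM), and dKO replicate 3 for Col11a2 (8.91 CPM). WT replicate 5 was low for Col28a1 (2.29 CPM). FGF21 KO replicate 1 was high for Col22a1 (0.132 CPM) and replicate 4 for Col4a6 (0.242 CPM).

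In iWAT, dKO replicate 3 was high for Col17a1 (5.24 CPM). In muscle, dKO replicate 2 was high for Col10a1 (11.7 CPM), Col2a1 (9.19 CPM) and Col27a1 (5.73 CPM), and UCP1 KO replicate 5 for Col2a1 (0.368 CPM) and Col27a1 (4.62 CPM). UCP1 KO replicate 2 was high for Col3a1 (530.3 CPM) and FGF21 KO replicate 5 for Col4a1 (311 CPM).

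The response of Col27a1 to UCP1 loss differed between the depots, by -1.39 on the log2 scale for BAT minus iWAT (SE 0.33, edgeR adjusted p = 0.00335). On library totals without scaling factors the difference was -0.90 (edgeR adjusted p = 0.0587).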

How the results depend on the processing

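No paired analysis was possible because the labels carry no replicate numbers and link no libraries of 1 mouse. The replicate numbers used here follow accession order and only name libraries. Across alternatives, of the values of called members and top-5 sets, 21 of 178 lost their call in other settings and 83 of 1300 with 1 library left out, and 0 reversed. These totals pool genotype calls with the 26 calls of BAT against iWAT, which have 40 left-out fits each. In dKO against FGF21 KO in BAT, calls were lost in 16 (Col6a6), 15 (Col11a2), 10 (Col4a3) and 9 (Col7a1) of 20 fits, and in 0 for Col10a1 and Col28a1. In iWAT, Col27a1 lost its call against dKO in 15 and against WT in 3 of 20. The calls of UCP1 KO against WT in BAT were lost in 0 of 20. Counts of called members held within 1.5 times in 95 of 121 other settings and 405 of 440 fits with 1 library left out. At an adjusted p under 0.05, the members called were 18 over 4 genotypes in BAT (45.1% of all genes), 3 in liver (0.764%) and 1 in muscle (1.38%), 8 for UCP1 KO against WT in BAT (40.7%), 1 in liver (0.618%) and 5 for the difference between depots (15.7%). DESeq2 called 13 members over 4 genotypes in BAT (37.9% of all genes), 2 in iWAT (7.27%) and 3 in liver (1.34%), 6 for UCP1 KO against WT in BAT (30.3%) and 1 in liver (0.777%), 2 for UCP1 KO against dKO in iWAT (3.08%), 1 for the interaction in iWAT (0.357%) and 2 for the difference between depots (10%). On library totals without scaling factors, 4 members were called for the difference between depots (18.5%). After adjusting for the lymph node score, 2 members were called in iWAT over 4 genotypes (4.57% of all genes), 2 for UCP1 KO against WT (4.72%) and 2 against dKO (4.3%). Without iWAT libraries of a high lymph node score, 0 were called for UCP1 KO against dKO. In fits of only the genotypes compared, 0 were called in iWAT for UCP1 KO against WT (0.00575% of all genes) and 0 against dKO (0%). In such a fit, 2 were called for dKO against FGF21 KO in BAT (12.4%). For the latter comparison, 3 were called with no low-count filter (8.06%) and 3 after adjusting for the skeletal muscle score (7.99%). Without BAT libraries of a high muscle score, an alternative added after seeing the data, 1 (Col4a5) was called for UCP1 KO against dKO (1.16%). With no low-count filter, 2 were called over 4 genotypes in liver (0.275%).

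With 1 library left out, the count was 6 to 11 over 4 genotypes in BAT (the highest without UCP1 KO replicate 1), 0 to 3 in liver (above 0 without UCP1 KO replicate 1 or 5 or dKO replicate 5), 3 to 5 for UCP1 KO against WT in BAT (5 without UCP1 KO replicate 1), 2 to 7 for dKO against FGF21 KO in BAT (3 without WT replicate 4 or dKO replicate 1, 2 without dKO replicate 2, 3 or 5 or FGF21 KO replicate 1, 3, 4 or 5), 0 to 1 for UCP1 KO against WT in iWAT, 0 to 1 for UCP1 KO against dKO in iWAT, 0 to 2 for the difference between depots (2 without BAT UCP1 KO replicate 1 or iWAT WT replicate 5) and 23 to 28 for BAT against iWAT, where the calls of Col4a3, Col4a5 and Col23a1 were lost in 2, 5 and 7 of 40 fits. The cause of these changes was not tested. Some members, such as Col10a1 and Col22a1 in BAT, were at a few counts in some libraries, so their changes rest on few reads there.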
